A study of Mus musculus with 15 samples.

Results

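The 10 genes described here encode transcription factors through which a lymphoid progenitor becomes a group 2 innate lymphoid cell (ILC2): *Gata3*, *Rora*, *Bcl11b*, *Gfi1*, *Ets1*, *Tcf7*, *Id2*, *Nfil3*, *Zbtb16* and *Tox*. They were picked by gene symbol as known factors of this lineage, with earlier results of these data known, and make up 10 of the 24690 gene entries counted in each RNA-seq library. Each symbol had a single entry with no second gene joined to it. In the NCBIM37 annotation the genes lie at chr2:9778705-9811661 (*Gata3*, minus strand), chr4:6613500-6918704 (*Tox*, minus), chr5:108145674-108155056 (*Gfi1*, minus), chr9:32443806-32565405 (*Ets1*, plus), chr9:48462416-48644050 (*Zbtb16*, minus), chr9:68501593-69236053 (*Rora*, plus), chr11:52065873-52096681 (*Tcf7*, minus), chr12:25778666-25780957 (*Id2*, minus), chr12:109148613-109241812 (*Bcl11b*, minus) and chr13:53062578-53076442 (*Nfil3*, minus). The 15 libraries came from sorted cells of 2 kinds, mature ILC2s of the lamina propria of the gut (LP ILC2) and ILC2 precursors of the bone marrow (BM ILC2p), each with and without an intact TGF-β receptor II gene. All donor mice were C57BL/6 and carried Tgfbr2f/fER-Cre+, that is, loxP-flanked *Tgfbr2* alleles with a Cre recombinase that is active in all tissues once tamoxifen is given. In Tgfbr2-/- groups the mice received 1 mg of tamoxifen a day for 5 days, and in WT groups oil instead, from an age of 8 to 12 weeks. The floxed alleles and the Cre are thus shared by both. Tamoxifen itself was given to the Tgfbr2-/- groups only, so its effects and those of losing *Tgfbr2* cannot be told apart. LP ILC2s were sorted as CD45+ lineage- CD127+ Sca-1+ CD25+ KLRG1+ cells from treated mice, 1 day after the last dose (4 WT and 3 Tgfbr2-/- libraries). BM ILC2p were sorted as CD45.2+ lineage- CD127+ α4β7+ CD25+ cells from mixed chimeras, 6 weeks after marrow of treated donors and CD45.1+ competitor marrow had been given to lethally irradiated CD45.1+ hosts (4 WT and 4 Tgfbr2-/- libraries). Each cell type was sequenced in 2 experiments of its own, so cell type, run, time since dosing, chimeric host and sort gate cannot be told apart. The labels do not say which libraries came from separate animals, and the p-values measure the spread between these libraries, which may be technical.

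Innate lymphoid cells arise from the common lymphoid progenitor through precursors that express the inhibitor ID2, which blocks E proteins and with them the B and T cell fates. NFIL3, TOX, TCF-1 (the product of *Tcf7*) and ETS1 act in those early precursors, and PLZF (the product of *Zbtb16*) marks a shared precursor and is switched off in mature cells. GATA3, RORα, BCL11B and GFI1 then set and hold the ILC2 fate, with GATA3 needed both for development and for the receptors and type 2 cytokines of the mature cell.

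Total counts ran from 12997489 to 22350339 in LP ILC2 WT, from 12167066 to 32114265 in LP ILC2 Tgfbr2-/-, from 12276824 to 35961215 in BM ILC2p WT and from 10957021 to 31993992 in BM ILC2p Tgfbr2-/-. Levels between libraries are given in CPM (read counts scaled to a common total) after TMM scaling over all 15 libraries, and levels between genes as RPKM, which also divides by transcript length. A gene was called where edgeR's quasi-likelihood test gave an adjusted p under 0.1 and the fold was over 1.5.

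*Tgfbr2* (chromosome 9, 115993415 to 116084383, minus strand, NCBIM37) did not separate the genotypes. In LP ILC2 the WT libraries held 172, 261, 149 and 207 CPM, against 206, 184 and 96.3 CPM with Tgfbr2-/-. In BM ILC2p the WT libraries held 0.712, 232, 107 and 188 CPM, against 87.2, 130, 30.8 and 218 CPM with Tgfbr2-/-. The groups overlapped in both cell types (log2 fold change -0.46, SE 0.24, adjusted p = 0.898 in LP ILC2 and -0.21, SE 1.21, adjusted p = 0.990 in BM ILC2p). The count covers all exons of the transcript, including those outside the deleted stretch, so it checks the deletion only in part. WT replicate 1 of the first BM ILC2p experiment, at 0.712 CPM, lay below every library labelled Tgfbr2-/-, and genotypes are used as labelled throughout. In the same library 14.1% of genes with a median of 50 CPM or more in the other BM ILC2p libraries were under 1 CPM. *Tgfbr1*, the partner receptor chain, was not called either (0.48, SE 0.71, in LP ILC2 and 0.97, SE 2.96, in BM ILC2p). All 11 ILC2 markers were at 10 CPM or more in every LP ILC2 library, and 7 to 10 of them in the BM ILC2p libraries.

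The libraries of BM ILC2p labelled Tgfbr2-/- stood apart from all others by genes of other marrow cells. The lineage antibodies listed in the study's methods include CD11b and Gr-1, which stain neutrophils and many other myeloid cells, and lineage+ cells were gated out. All 8 neutrophil markers were at 10 CPM or more in each of the 4 libraries, and their sum was 71270, 60740, 60090 and 71400 CPM, against 749.0, 1513, 832.7 and 1427 CPM in the 4 WT libraries and at most 4.04 CPM in any LP ILC2 library. The most abundant, *S100a8*, which encodes a subunit of calprotectin, was at 29540, 23740, 24050 and 25630 CPM in Tgfbr2-/- and between 58.9 and 167 CPM in WT. In WT BM ILC2p the most abundant neutrophil marker was *Mpo*, the myeloperoxidase of granule precursors, at 398.4 to 1088 CPM. No defining neutrophil marker was at 0 in any BM ILC2p library. Between the genotypes 7 of the 8 neutrophil markers and 4 of the 5 basophil and mast cell markers tested were called higher in Tgfbr2-/- (*Prss34*, a basophil protease, at 821.4 to 944.3 CPM against 1.97 to 5.14 CPM). Over all genes tested between these groups 3.47% were called (241 higher and 80 lower). The 6 macrophage markers summed to 11680 to 13230 CPM against 42.98 to 80.71 CPM, and 2 of them were called higher. The lysozyme gene *Lyz2* led them, at 10860 to 12530 CPM in Tgfbr2-/- and 24.67 to 68.77 CPM in WT. The 7 NK cell and ILC1 markers summed to 153.9, 132.8, 94.61 and 469.6 CPM against 0.4452, 18.38, 37.45 and 11.74 CPM, and of the 4 tested *Gzma*, a granzyme of cytotoxic lymphocytes, was called higher (log2 fold change 8.66, SE 1.90, adjusted p = 0.0568; 25.34 to 41.68 CPM against at most 0.198 CPM). The sum of the 11 ILC2 markers moved the other way, 3014, 2544, 2798 and 3879 CPM in Tgfbr2-/- against 8734, 6566, 7182 and 6144 CPM in WT. *Gata3* is itself one of the 11 and the most abundant of them in every library (868.2 to 1937 CPM of the sum in Tgfbr2-/- and 2324 to 4723 CPM in WT). The 5 progenitor markers summed to 178.9 to 283.3 CPM in Tgfbr2-/- against 13.98 to 155.9 CPM in WT, and the 5 erythroid markers to 43.99 to 245.8 CPM against 12.20 to 45.63 CPM, with 0 of the 2 tested in each list called. In bulk RNA, fewer cells of a type and less RNA per cell cannot be told apart, and this holds for every bone marrow comparison that follows.

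The libraries also differed in how many expressed genes were missing. A gene was counted as expressed in a library's cell type where the median over its other libraries was 50 CPM or more. Of these, at most 0.0285% were under 1 CPM in any LP ILC2 library. In BM ILC2p the share was 14.1%, 3.66%, 1.75% and 1.56% in the WT libraries and 12.1%, 13.8%, 1.81% and 8.36% in the Tgfbr2-/- libraries, in the order of the first experiment's 2 libraries and then the second's. Of the 10 factors, *Nfil3* and *Zbtb16* were under 1 CPM in WT replicate 1 of the first experiment, *Gfi1*, *Tcf7* and *Nfil3* in Tgfbr2-/- replicate 2 of the first, *Zbtb16* in WT replicate 1 of the second, and *Gfi1* and *Tcf7* in Tgfbr2-/- replicate 2 of the second. In LP ILC2 the single factor under 1 CPM was *Zbtb16*, in WT replicate 1 of the first experiment. The plot of undetected genes sets both measures side by side.

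**Figure D1:**
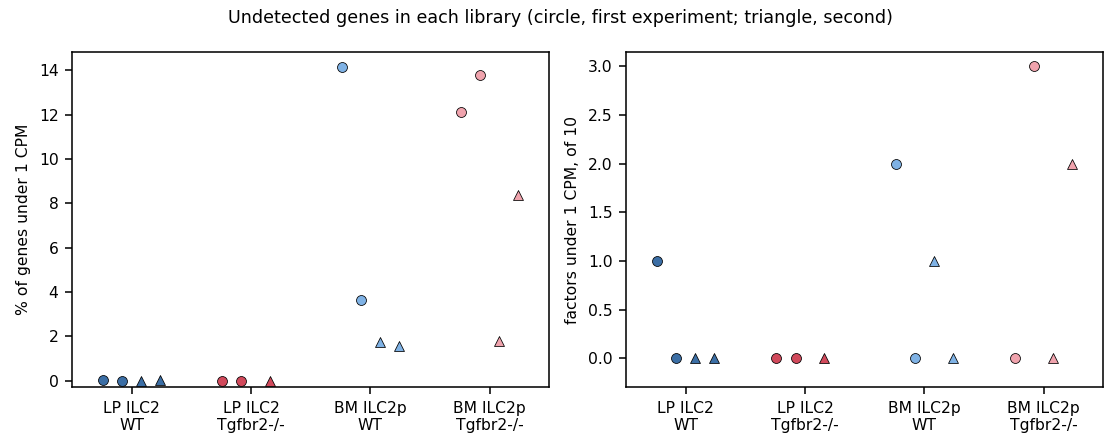
Left, the percentage of genes under 1 CPM in each library among genes whose median over the other libraries of that cell type was 50 CPM or more. Right, the number of the 10 factors under 1 CPM. Each point is a library. LP ILC2 libraries sit at or near 0%, and BM ILC2p libraries range from 1.56% to 14.1%.

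Promoter windows of 300 bases (250 before and 50 after the RefSeq transcription start) were at hand for 7 of the 10 genes. The 3 shown belong to *Gata3* and *Id2*, the pair called lower in Tgfbr2-/- BM ILC2p, and to *Rora*, which had the largest called difference between the cell types. Sequences are from RefSeq (GRCm38.p6), each found at a single place in the NCBIM37 genome, whose coordinates are given. Capitals mark matches to the motifs searched.
*Gata3*, NCBIM37 chr2:9800178-9800477, minus strand: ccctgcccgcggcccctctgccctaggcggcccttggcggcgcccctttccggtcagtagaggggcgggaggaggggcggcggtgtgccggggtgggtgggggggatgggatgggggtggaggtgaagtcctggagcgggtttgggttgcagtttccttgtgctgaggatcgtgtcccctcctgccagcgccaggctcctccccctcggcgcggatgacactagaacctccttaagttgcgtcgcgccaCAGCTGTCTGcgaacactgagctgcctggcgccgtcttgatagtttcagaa
*Id2*, NCBIM37 chr12:25780908-25781207, minus strand: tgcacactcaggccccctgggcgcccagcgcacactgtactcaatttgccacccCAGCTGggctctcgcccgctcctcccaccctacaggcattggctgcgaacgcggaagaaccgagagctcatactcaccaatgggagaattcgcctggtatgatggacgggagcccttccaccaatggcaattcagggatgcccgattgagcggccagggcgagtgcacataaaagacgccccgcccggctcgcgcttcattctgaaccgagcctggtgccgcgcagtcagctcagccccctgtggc
*Rora*, NCBIM37 chr9:68501343-68501642, plus strand: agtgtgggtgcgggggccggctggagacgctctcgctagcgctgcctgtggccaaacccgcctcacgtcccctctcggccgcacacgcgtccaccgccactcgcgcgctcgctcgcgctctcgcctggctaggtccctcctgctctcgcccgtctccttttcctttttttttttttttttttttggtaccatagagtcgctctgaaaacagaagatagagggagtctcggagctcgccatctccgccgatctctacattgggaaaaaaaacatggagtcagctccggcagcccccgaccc
Letters of known binding motifs were searched on both strands of each window. Those of the zinc finger factor GATA3 were AGATAA or, as the other form, TGATAA. SMAD proteins, which carry the TGF-β signal, were represented by GTCTAGAC or by the shorter form CAGACA. The ROR receptors were represented by AGGTCA, the ETS family by CCGGAAG, the TCF family by CTTTGAA, the E proteins by the E box CAGCTG, and NFIL3 by TTACGTAA or by the variant TTATGTAA. The RefSeq start of this *Gata3* window lies inside the annotated span of the gene (9778705 to 9811661). The window held CAGCTG from 1 base before the start and, overlapping it, the reverse complement of CAGACA. The *Id2* window held CAGCTG 196 bases before the start, and the *Rora* window held none of these letters. CAGCTG was present in windows of 4 of the 7 genes (*Gata3*, *Tcf7*, *Id2* and *Nfil3*) and in 16.3% of all 32851 promoter windows, and CAGACA in 1 of the 7 and 21.0% of all. AGGTCA occurred in windows of *Tcf7* and *Nfil3* (16.3% of all), CCGGAAG in windows of *Gfi1* and *Tcf7* (8.86% of all) and CTTTGAA in that of *Bcl11b* (5.14% of all). Neither form for GATA3 (11.2% and 9.05% of all), nor GTCTAGAC (0.213%), nor the NFIL3 forms (0.119% and 0.938%) occurred in any of them. A match describes the letters only.

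Per transcript length, and ordered by the mean of log2(RPKM + 0.1), *Id2* and *Gata3* were the most abundant of the 10 in all 4 groups. In LP ILC2 WT their median levels were 1447 and 1362 RPKM, followed by *Ets1* at 262, *Rora* at 160 and *Nfil3* at 137 RPKM, then *Tox* at 66.8, *Tcf7* at 48.3, *Bcl11b* at 24.6, *Gfi1* at 12.5 and *Zbtb16* at 0.607 RPKM. Only the steps from *Gata3* to *Ets1* and from *Ets1* to *Rora* were free of overlap between libraries, and the other neighbours did not differ beyond their spread. In LP ILC2 Tgfbr2-/- the order was the same, with non-overlapping steps from *Gata3* to *Ets1*, *Nfil3* to *Tox*, *Tcf7* to *Bcl11b* and *Gfi1* to *Zbtb16*.

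In BM ILC2p WT the first 4 places were again *Id2* (median 2201 RPKM), *Gata3* (1025 RPKM), *Ets1* (137 RPKM) and *Rora* (45.6 RPKM), with no overlap between any neighbours among the 4. From *Rora* down through *Tox*, *Gfi1*, *Tcf7*, *Bcl11b*, *Nfil3* and *Zbtb16* every neighbour overlapped. In BM ILC2p Tgfbr2-/- *Id2* (median 968 RPKM), *Gata3* (320.1 RPKM) and *Ets1* (73.6 RPKM) kept their places, *Id2* and *Gata3* each apart from the next, while all neighbours from *Ets1* down overlapped. There *Zbtb16*, last in the other 3 groups, was in the fifth place at a median of 16.7 RPKM. The plot of levels in 15 libraries shows all of these values.

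**Figure D2:**
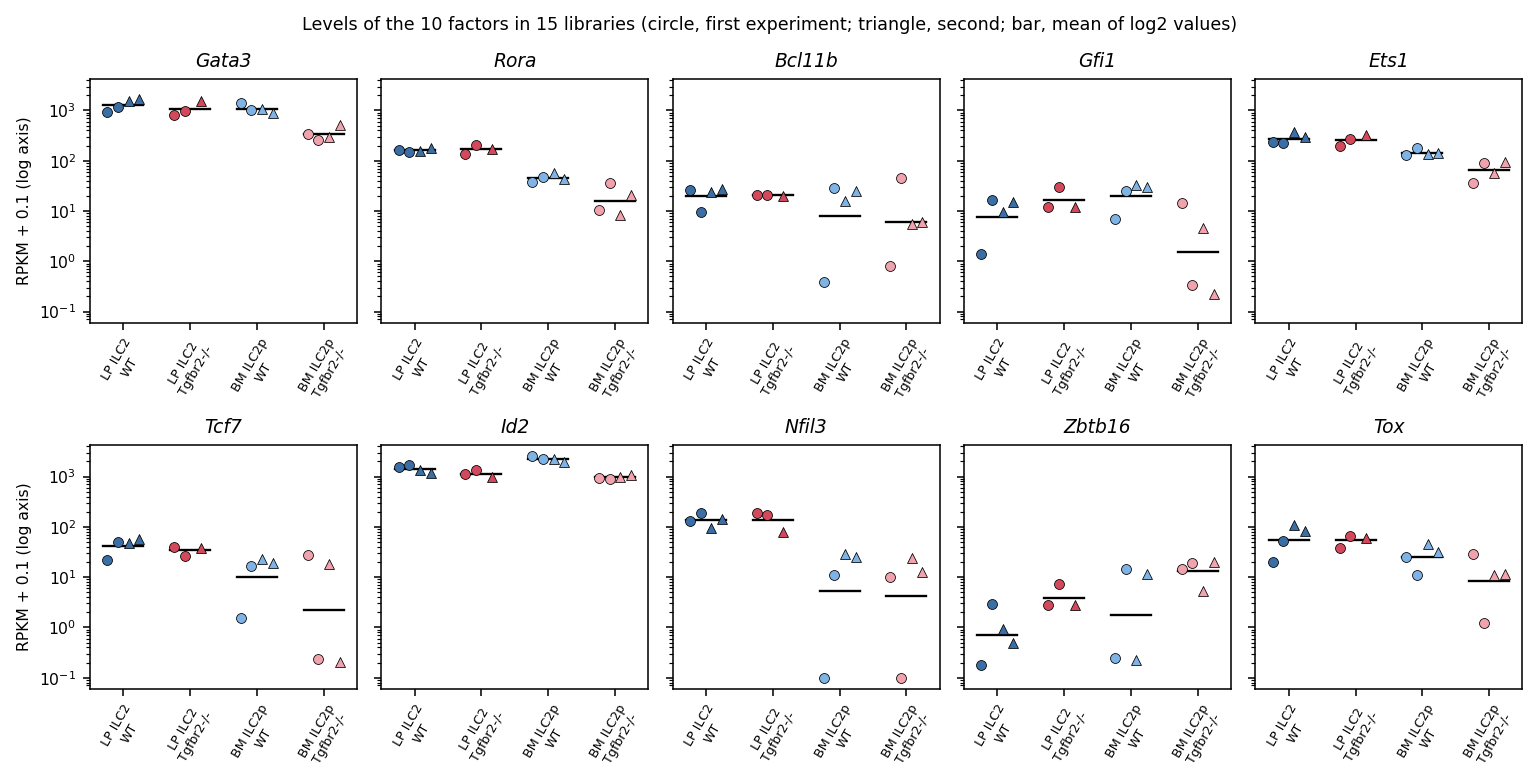
RPKM plus 0.1 (log axis) of each factor by group; circles are libraries of the first experiment, triangles of the second, and the bar is the mean of the log2 values of the group. *Id2* and *Gata3* are the highest in every group, *Gata3* runs from 893 to 1417 RPKM in BM ILC2p WT and from 259 to 507 RPKM in BM ILC2p Tgfbr2-/-, and *Bcl11b*, *Gfi1*, *Tcf7*, *Nfil3* and *Zbtb16* spread widely among BM ILC2p libraries.

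In BM ILC2p, libraries labelled Tgfbr2-/- (donors given tamoxifen before transfer) were compared with those of oil-treated donors. *Gata3* and *Id2* were called lower in Tgfbr2-/-, the other 8 factors were not called, and none was called higher. Over all 9242 genes tested 3.47% were called (241 higher and 80 lower). The median log2 fold change was -0.83 over the 10 factors and -0.10 over all genes. The neutrophil sum and the ILC2 marker sum moved with these groups by the values given above, and their part in the values that follow was not tested.

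*Gata3*, the zinc finger factor that specifies and maintains ILC2s, stood at 4723 and 2692 CPM for WT in the first experiment and at 3002 and 2324 CPM for WT in the second. In Tgfbr2-/- it was at 1215 and 868 CPM in the first and at 911 and 1937 CPM in the second. Every Tgfbr2-/- library lay below every WT library, with a mean of 1233 ± 494 CPM (SD, n = 4) against 3185 ± 1062 CPM (SD, n = 4). The log2 fold change was -1.41 (SE 0.31, edgeR adjusted p = 0.0603). It was -1.85 in the first experiment alone (adjusted p = 0.286) and -0.99 in the second alone (adjusted p = 0.376). The call was lost without WT replicate 1 of the first experiment (log2 fold change -1.14, adjusted p = 0.102). That library had the lowest *Tgfbr2* and also the highest share of expressed genes under 1 CPM (14.1%). The call held only without WT replicate 2 or Tgfbr2-/- replicate 2 of the second experiment. Without any of the other 5 libraries the adjusted p was up to 0.178, and RLE scaling (DESeq2's size factors) in edgeR gave -1.30 (adjusted p = 0.1001).

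*Id2*, the inhibitor of E proteins, stood at 3378 and 2344 CPM for WT in the first experiment and at 2488 and 2028 CPM for WT in the second. In Tgfbr2-/- it was at 1320 and 1174 CPM in the first and at 1207 and 1643 CPM in the second. The groups did not overlap, and the log2 fold change was -0.96 (SE 0.20, adjusted p = 0.0447). Within the experiments it was -1.21 (adjusted p = 0.355) and -0.75 (adjusted p = 0.308), and leaving out 1 library at a time gave adjusted p-values of 0.0467 to 0.142. The call was lost without either Tgfbr2-/- library of the first experiment, WT replicate 1 of the second or Tgfbr2-/- replicate 1 of the second. It was also lost with RLE scaling (-0.85, adjusted p = 0.111) and with the replicate number as a block (-0.96, adjusted p = 0.117).

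*Ets1*, an ETS family factor that acts upstream of *Id2* in early precursors, measured 690, 748, 600 and 566 CPM across WT libraries against 194.5, 449.9, 277.1 and 555.2 CPM across Tgfbr2-/- libraries. The ranges did not overlap, though the highest Tgfbr2-/- and the lowest WT library nearly met, and the change was not called (log2 fold change -0.85, SE 0.36, adjusted p = 0.471). *Gata3*, *Ets1* and *Id2* were the 3 of 10 factors with every Tgfbr2-/- library below every WT library, as were 3.83% of all genes tested. *Rora*, the nuclear receptor needed for ILC2 development, measured 419, 434, 550 and 381 CPM across WT libraries against 122, 412, 86.8 and 268 CPM across Tgfbr2-/- libraries (log2 fold change -1.06, SE 0.51, adjusted p = 0.594). Its second Tgfbr2-/- library of the first experiment lay within the WT range.

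Of the 11 ILC2 markers 10 could be tested, and 2 of them, *Gata3* and *Il1rl1*, were called lower, 0 higher, against 3.47% of all genes called in either direction. *Il1rl1*, which encodes the IL-33 receptor ST2, had a log2 fold change of -1.96 (SE 0.22, adjusted p = 0.00156). *Il7r* (-0.94, SE 0.29, adjusted p = 0.206), *Il2ra* (-1.20, SE 0.35, adjusted p = 0.169) and *Ly6a* (-0.96, SE 0.25, adjusted p = 0.114), which encode the sorted surface proteins CD127 and CD25 and the ILC2 surface protein Sca-1, had negative values smaller in size than that of *Il1rl1* and did not pass the test. *Il17rb*, a receptor chain for IL-25, was at -0.49 (SE 0.31, adjusted p = 0.783), *Klrg1* at -0.17 (SE 0.63, adjusted p = 0.982) and the cytokine gene *Il13* at 0.07 (SE 13.5, adjusted p = 0.999). The growth factor gene *Areg* (-6.16, SE 2.91, adjusted p = 0.581) and the costimulatory receptor gene *Icos* (-1.84, SE 1.05, adjusted p = 0.727) were not called either. For *Il7r*, *Il2ra*, *Ly6a*, *Areg* and *Icos* every Tgfbr2-/- library lay below every WT library (at most 465.5, 376.1 and 354.7 CPM against at least 521.3, 522.0 and 550.7 CPM for the first 3). The same held for *Gata3* and *Il1rl1*, and for 3.83% of all genes tested, while *Il17rb*, *Klrg1* and *Il13* overlapped. *Gata3* was also set against *Il7r* and *Il2ra*, both of which the marrow sort selects for at the protein level. Both were themselves lower in every Tgfbr2-/- library, and both are among the genes listed below as known to depend on GATA3. Dividing by them shrinks any fall of similar size by construction, so the ratio does not show whether *Gata3* changed. Per count of *Il7r* plus *Il2ra* it had 3.04, 2.17, 2.11 and 2.07 counts in the 4 WT libraries and 1.84, 1.69, 1.33 and 2.41 counts in the 4 Tgfbr2-/- libraries, which overlapped.

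For *Id2* the same ratio was 2.17, 1.89, 1.75 and 1.81 in WT and 2.00, 2.28, 1.77 and 2.05 in Tgfbr2-/-, with overlap. With this scaling in the edgeR fit, an alternative chosen after the neutrophil genes had been seen, *Gata3* had a log2 fold change of -0.36 (SE 0.23, adjusted p = 0.517), *Id2* of 0.09 (SE 0.16, adjusted p = 0.811), *Ets1* of 0.20 (SE 0.39, adjusted p = 0.821) and *Rora* of 0.01 (SE 0.57, adjusted p = 0.995). None of the 10 factors was called, and the median over all genes was 0.95, against -0.10 by TMM, a shift that this scaling gives to nearly all genes. The plot of BM ILC2p libraries shows the CPM values, the neutrophil sum and the ratios.

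**Figure D3:**
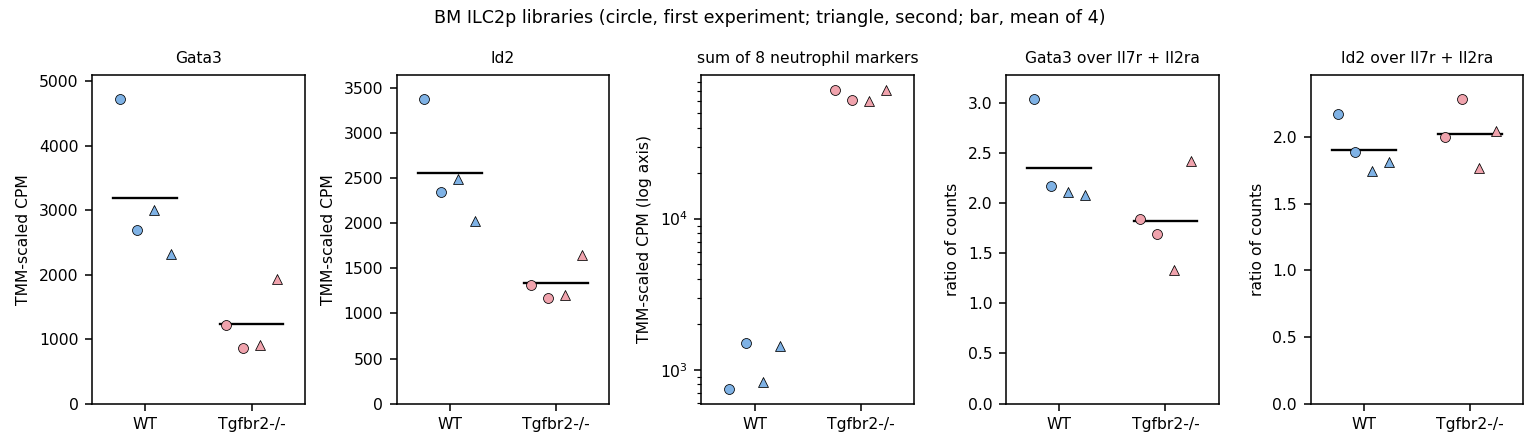
BM ILC2p libraries by genotype: *Gata3* and *Id2* in CPM, the summed CPM of 8 neutrophil markers (log axis), and the counts of *Gata3* and *Id2* per count of *Il7r* plus *Il2ra*. Points are libraries and bars are means of 4. The genotypes do not overlap in the first 3 panels and overlap in the ratios.

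The remaining 6 factors varied widely between libraries of 1 genotype. *Bcl11b*, a zinc finger factor required for ILC2 identity, measured 2.23, 181, 114 and 157 CPM across WT libraries against 5.84, 365, 40.8 and 53.2 CPM across Tgfbr2-/- libraries. *Gfi1*, a repressor that sustains *Gata3* and *Il1rl1*, measured 19.1, 54.6, 84.0 and 59.7 CPM across WT libraries against 38.5, 0.621, 10.6 and 0.425 CPM across Tgfbr2-/- libraries. Both sets of values overlapped between genotypes, and neither change was called (log2 fold change -0.27, SE 1.48, and -2.33, SE 1.78). *Tcf7*, whose product TCF-1 acts in the earliest innate lymphoid precursors, measured 3.38, 30.3, 45.8 and 33.7 CPM across WT libraries against 66.2, 0.310, 39.4 and 0.270 CPM across Tgfbr2-/- libraries, where 2 libraries lay within or above the WT range and 2 held 3 and 7 counts. *Nfil3*, a basic leucine zipper factor, measured 0, 18.3, 50.7 and 39.8 CPM across WT libraries against 21.7, 0, 44.8 and 29.7 CPM across Tgfbr2-/- libraries. A count of 0 allows up to 0.267 CPM in the WT library and 0.310 CPM in the Tgfbr2-/- library, a limit that covers counting error only. Apart from the library at 0 in each genotype, the *Nfil3* values of the genotypes overlapped. *Tox*, an HMG box factor, measured 75.7, 25.6, 117 and 71.4 CPM across WT libraries against 91.6, 3.31, 30.3 and 39.5 CPM across Tgfbr2-/- libraries, and these ranges overlapped too. Neither *Tcf7* (-0.03, SE 1.93), *Nfil3* (-0.05, SE 2.02) nor *Tox* (-0.80, SE 1.14) was called. Leaving out 1 library at a time moved *Gfi1* from -1.60 to -4.47 and *Tox* from -0.50 to -2.33, both lowest without Tgfbr2-/- replicate 1 of the first experiment. The sign itself turned for *Tcf7* (-2.33 to 0.59), *Nfil3* (-1.87 to 1.18) and *Bcl11b* (-2.43 to 0.21), which were lowest without Tgfbr2-/- replicate 1 (*Tcf7* and *Nfil3*) or 2 (*Bcl11b*) of the first experiment. *Zbtb16* measured 0.801, 60.6, 0.593 and 47.2 CPM across WT libraries against 81.8, 101, 25.1 and 122 CPM across Tgfbr2-/- libraries, with a median of 91.2 CPM in Tgfbr2-/- and 24.0 CPM in WT and with overlap. Its log2 fold change of 1.56 (adjusted p = 0.899) was not called, and leaving out 1 library at a time gave 1.02 (without Tgfbr2-/- replicate 2 of the second experiment) to 2.99 (without WT replicate 2 of the second). The NK cell and ILC1 markers and the progenitor markers given above were higher in sum in the same libraries, and their part in this value was not tested.

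In LP ILC2, whose libraries held almost no neutrophil transcripts, *Gata3* stood in the first experiment at 2984 and 3573 CPM for WT against 2269 and 2957 CPM for Tgfbr2-/-, and in the second at 4336 and 4689 CPM against 4207 CPM. *Id2* was at 1987 and 2057 CPM against 1273 and 1649 CPM in the first, and at 1470 and 1257 CPM against 1070 CPM in the second. For both genes every Tgfbr2-/- library lay below the WT libraries of its own experiment, which was so for 2 of the 10 factors and 5.58% of all genes. The log2 fold changes were -0.26 (SE 0.15, adjusted p = 0.898) for *Gata3* and -0.45 (SE 0.15, adjusted p = 0.898) for *Id2*. Leaving out 1 library at a time gave -0.36 to -0.14 for *Gata3*, nearest 0 without Tgfbr2-/- replicate 1 of the first experiment, and -0.53 to -0.34 for *Id2*. Over 10 alternatives of processing *Gata3* ran from -0.346 to -0.068 and *Id2* from -0.490 to -0.317. No factor was called, nor was any of the 11981 genes tested by edgeR (0.0%; 557 had an unadjusted p under 0.05, and DESeq2 called 338). By DESeq2 the change of *Id2* was -0.45 (adjusted p = 0.0983), short of the fold of 1.5.

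*Rora* was at 1807, 1583, 1432 and 1633 CPM in LP ILC2 WT and at 1342, 2097 and 1559 CPM in Tgfbr2-/- (log2 fold change -0.01, SE 0.18). *Ets1* measured 1181, 1087, 1598 and 1229 CPM across WT libraries against 890, 1297 and 1351 CPM across Tgfbr2-/- libraries (-0.09, SE 0.18). Both pairs of groups overlapped. *Bcl11b* (70.3 to 204 CPM in WT, 135 to 151 CPM in Tgfbr2-/-), *Tcf7* (47.9 to 110 CPM, 56.4 to 79.1 CPM), *Nfil3* (160 to 365 CPM, 136 to 330 CPM), *Tox* (57.9 to 274 CPM, 96.1 to 184 CPM) and *Gfi1* (3.41 to 42.0 CPM, 25.5 to 76.4 CPM) overlapped as well. *Zbtb16* measured 0.420, 14.1, 3.59 and 1.74 CPM across WT libraries against 12.4, 36.0 and 11.5 CPM across Tgfbr2-/- libraries, an overlap of 1 WT library (log2 fold change 1.88, SE 1.06, adjusted p = 0.898). Without that library, WT replicate 2 of the first experiment, the value was 3.88 (adjusted p = 0.811). The NK cell and ILC1 markers, led by *Gzma* in all 7 libraries, summed to 390.6, 229.9, 217.1 and 285.8 CPM across WT libraries against 294.1, 498.3 and 942.7 CPM across Tgfbr2-/- libraries, with overlap. Of the 6 tested none was called, and *Klrb1c*, which encodes the NK receptor NK1.1, was at 2.02 to 7.30 CPM in WT and 13.94 to 29.23 CPM in Tgfbr2-/- (log2 fold change 2.32, SE 0.80, adjusted p = 0.898). In the second experiment the LP ILC2 libraries also held epithelial transcripts, whose 7 markers summed to 223 and 404 CPM for WT against 938 CPM for Tgfbr2-/-, led by *Agr2* or *Krt8*, and the part of either marker list in these values was not tested.

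The change with genotype was also compared between the cell types, for the 4 factors above 10 CPM in all 15 libraries. The difference in log2 fold change, LP ILC2 minus BM ILC2p, was 1.13 (SE 0.39, adjusted p = 0.242) for *Gata3*, 1.05 (SE 0.56, adjusted p = 0.507) for *Rora*, 0.76 (SE 0.43, adjusted p = 0.541) for *Ets1* and 0.51 (SE 0.26, adjusted p = 0.476) for *Id2*. None was called, against 0.992% of all 12806 genes, and the median over all genes was 0.31. For *Gata3* the call depended on the setting. The difference was called in 4 of 6 alternatives, with library size scaling (1.45, adjusted p = 0.0561), no filter (1.05, adjusted p = 0.0316), at least 10 counts in every library (1.25, adjusted p = 0.0922) and limma (1.47, adjusted p = 0.0197), but not with DESeq2 (0.99, adjusted p = 0.419) or RLE scaling (0.99, adjusted p = 0.294). It was called as well without Tgfbr2-/- replicate 2 of the second BM ILC2p experiment (1.48, adjusted p = 0.0386). *Id2* was called in 2 of the 6, with library size scaling (0.82, adjusted p = 0.0953) and limma (0.82, adjusted p = 0.0147). The plot of fitted log2 fold changes gives all 10 factors.

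**Figure D4:**
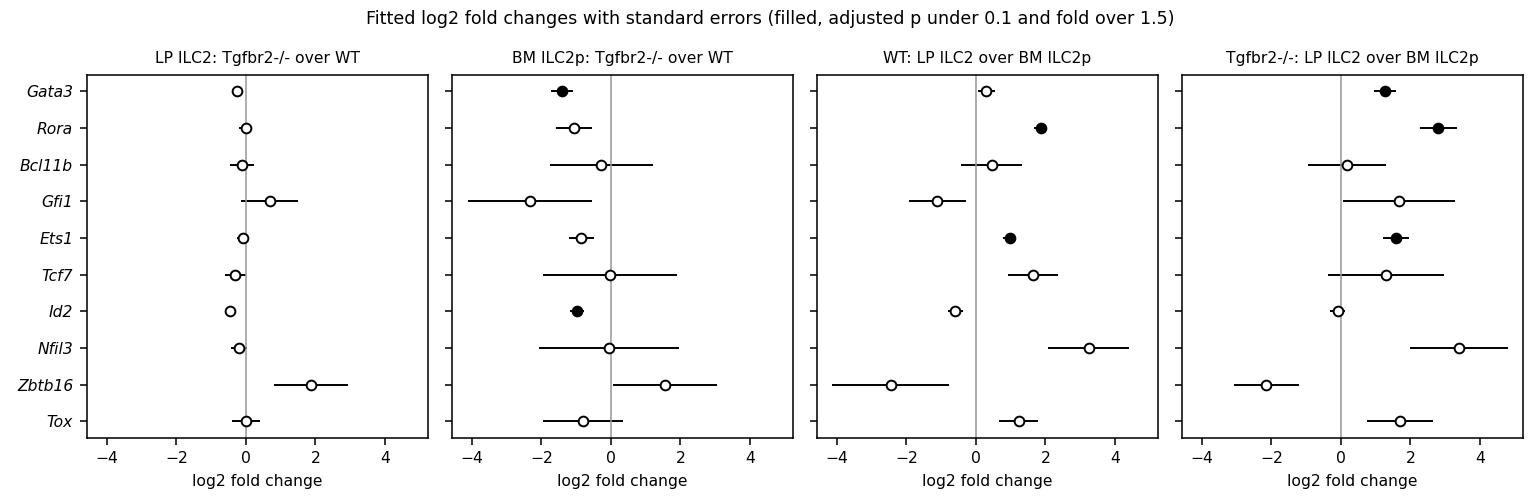
Log2 fold changes of the 10 factors in 4 comparisons, with standard errors from edgeR; filled points had an adjusted p under 0.1 and a fold over 1.5. No point is filled for genotype in LP ILC2, *Gata3* and *Id2* are filled for genotype in BM ILC2p, and *Rora* and *Ets1* are filled in both comparisons of cell type, with *Gata3* filled among Tgfbr2-/- cells as well.

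Between WT cells of both sites, *Rora* and *Ets1* were called higher in LP ILC2 than in BM ILC2p, and no factor was called lower. Over all genes tested 2.56% were called. The 8 T cell markers summed to 98.22 to 225.6 CPM in LP ILC2 WT against 4.541 to 85.23 CPM in BM ILC2p WT. The 5 ILC3 markers summed to 26.96 to 509.8 CPM against 19.31 to 108.3 CPM. Of the T cell markers 1 of 5 tested was called higher in LP ILC2, and of the ILC3 markers 1 of 4. Of the 8 neutrophil markers 5 were called lower. The part of these lists in the values that follow was not tested. *Rora* stood at 1807, 1583, 1432 and 1633 CPM in LP ILC2 and at 419, 434, 550 and 381 CPM in BM ILC2p, with the groups well apart (log2 fold change 1.86, SE 0.18, adjusted p = 0.000803). Leaving out any 1 of the 8 libraries kept this call, with values of 1.78 to 1.97. *Ets1* was at 1274 ± 224 CPM in LP ILC2 and 651 ± 83.4 CPM in BM ILC2p (SD, n = 4 each; log2 fold change 0.97, SE 0.19, adjusted p = 0.0413), and its call was lost without LP ILC2 replicate 1 of the first experiment, either LP ILC2 replicate of the second or BM ILC2p replicate 1 of the second (adjusted p up to 0.124) and in 1 fit over all 15 libraries (adjusted p = 0.127).

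*Nfil3*, which starts the innate lymphoid programme, was at 265, 365, 160 and 239 CPM in LP ILC2 WT and at 0, 18.3, 50.7 and 39.8 CPM in BM ILC2p WT. The groups did not overlap (log2 fold change 3.24, SE 1.16, adjusted p = 0.345), and the difference was called without BM ILC2p WT replicate 1 of the first experiment, the library at 0 (2.83, adjusted p = 0.0153), by DESeq2 (3.23, adjusted p = 0.0418) and by limma (3.80, adjusted p = 0.0524). *Tcf7*, at 47.9 to 110 CPM against 3.38 to 45.8 CPM, was separated as well (1.65, SE 0.72, adjusted p = 0.513). With *Rora* and *Ets1* this made 4 of 10 factors with all LP ILC2 libraries higher, against 6.34% of all genes. *Gata3* (0.30, SE 0.25, adjusted p = 0.854), *Bcl11b* (0.45, SE 0.88) and *Tox* (1.23, SE 0.56, adjusted p = 0.543) overlapped between sites. Without BM ILC2p WT replicate 1 of the first experiment *Gata3* was at 0.55 and *Bcl11b* at 0.04, and leaving out each of the other libraries gave *Gata3* no less than 0.16 and *Bcl11b* no more than 0.78. *Id2* (-0.59, SE 0.22, adjusted p = 0.370), *Gfi1* (-1.11, SE 0.81) and *Zbtb16* (-2.46, SE 1.67) had negative values and were not called.

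Between Tgfbr2-/- cells of both sites, *Gata3*, *Rora* and *Ets1* were called higher in LP ILC2, against 13.7% of all genes called. The log2 fold changes were 1.26 for *Gata3* (SE 0.31, adjusted p = 0.0354), 2.80 for *Rora* (SE 0.53, adjusted p = 0.0238) and 1.58 for *Ets1* (SE 0.38, adjusted p = 0.0308). Without the LP ILC2 Tgfbr2-/- library of the second experiment the calls of *Gata3* (1.01, adjusted p = 0.135) and *Ets1* (1.48, adjusted p = 0.105) were lost, and by DESeq2 *Gata3* was not called (1.09, adjusted p = 0.199). These 3 with *Nfil3* and *Tox* were the 5 of 10 factors with every LP ILC2 library higher, against 16.5% of all genes. *Nfil3* was at 330, 330 and 136 CPM in LP ILC2 and 0 to 44.8 CPM in BM ILC2p (log2 fold change 3.39, SE 1.40, adjusted p = 0.227), and was called without the BM ILC2p library at 0 (2.99, adjusted p = 0.0324). The neutrophil sum differed between these groups by the values given above, from at most 1.45 CPM in LP ILC2 to at least 60090 CPM in BM ILC2p, and its part in the difference was not tested. The T cell markers summed to 58.15 to 120.4 CPM in LP ILC2 and 18.56 to 44.38 CPM in BM ILC2p. The ILC3 markers summed to 141.3 to 274.4 CPM and 0.5794 to 113.2 CPM. Of these, 3 of 5 and 2 of 5 tested were called higher in LP ILC2. Their part was not tested either.

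Relatives of the 10 factors were looked at as a list. Of 22 family members, 13 could be tested between the genotypes in BM ILC2p, where *Gata2*, a GATA factor of mast cells, basophils and progenitors, was called higher (log2 fold change 8.77, SE 1.92, adjusted p = 0.0562) and none lower, against 3.47% of all genes called. It is also one of the 4 basophil and mast cell markers called higher, whose sum was 1209 to 1903 CPM in Tgfbr2-/- and 111.1 to 297.0 CPM in WT, and the part of those cells in its value was not tested. *Gata2* was at 0.396, 134, 75.5 and 322 CPM in Tgfbr2-/- and at most 1.13 CPM in WT. In LP ILC2 0 of the 15 tested were called between the genotypes, and between the sites *Gata2* was lower in LP ILC2 Tgfbr2-/-, the single call of 17 tested (13.7% of all genes), with 0 of 13 called in WT. By median RPKM the most abundant relatives were *Ets2* in LP ILC2 (73.5 RPKM in WT) and *Fli1* in BM ILC2p (60.4 RPKM in WT), both of the ETS family and called in no comparison. *Lef1*, a close relative of *Tcf7*, was at 86.1, 87.3, 3.53 and 24.9 CPM in BM ILC2p WT and at most 2.04 CPM in Tgfbr2-/- without passing the test (adjusted p = 0.282).

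The 3 E proteins that ID2 binds (*Tcf3*, *Tcf4* and *Tcf12*) were tested in all 5 comparisons and called in none. *Tcf3*, the most abundant of them by median RPKM in all 4 groups, was at 0.445, 91.1, 43.7 and 121 CPM in BM ILC2p WT and at 259, 237, 45.6 and 390 CPM in Tgfbr2-/- (log2 fold change 1.88, SE 1.24, adjusted p = 0.796). Factors of other innate lymphoid fates were called once: *Tbx21*, the T-bet of ILC1 and NK cells, was higher in LP ILC2 than in BM ILC2p among Tgfbr2-/- cells, at 44.2, 91.6 and 17.1 CPM against at most 1 count in any library. It was 1 of 4 of that list tested there, against 13.7% of all genes called. *Runx3*, the most abundant of that list by median RPKM in all 4 groups, was at 34.5 to 69.6 RPKM in LP ILC2 WT and 12.3 to 46.9 RPKM in BM ILC2p WT and was called in no comparison.

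Of 10 other factors of lymphoid progenitors and ILC2s, none was called with genotype at either site, against 0.0% of all genes in LP ILC2 and 3.47% in BM ILC2p. *Bhlhe40*, a basic helix-loop-helix factor and by median RPKM the most abundant of them except in BM ILC2p Tgfbr2-/- (*Batf*, 135 RPKM), was called higher in WT LP ILC2 (1872 to 2140 CPM) than in WT BM ILC2p (966 to 1516 CPM; log2 fold change 0.87, SE 0.19, adjusted p = 0.0543). This was 1 of 9 tested, against 2.56% of all genes called. *Myb*, a factor of progenitors, was called lower in Tgfbr2-/- LP ILC2 (at most 0.218 CPM) than in Tgfbr2-/- BM ILC2p (152, 68.7, 35.5 and 133 CPM). It was 1 of 10 tested, against 13.7% of all genes called. The part of the other marrow cell transcripts of these BM ILC2p libraries in its value was not tested.

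In the Notch pathway, which drives *Tcf7* and *Gata3* in early lymphoid cells, 2 of 7 genes tested were called higher in WT LP ILC2 than in WT BM ILC2p (2.56% of all genes called) and 3 of 7 in the Tgfbr2-/- comparison (13.7% of all), with none lower and none called with genotype. *Hes1*, a direct Notch target and by median RPKM the most abundant of the list except in BM ILC2p Tgfbr2-/- (*Maml1*, 15.2 RPKM), was at 1218 to 2014 CPM in LP ILC2 WT and 41.1 to 144 CPM in BM ILC2p WT (log2 fold change 4.12, SE 0.40, adjusted p = 0.000803), and it was at 1152 to 1939 CPM and 6.24 to 29.8 CPM in Tgfbr2-/- (6.49, SE 0.60, adjusted p = 0.000785). *Dtx1*, another target, was at 166 to 425 CPM in LP ILC2 WT and had 0 counts in all 8 BM ILC2p libraries. Against the largest limit that a count of 0 allows in 1 library, its mean was at least 1210-fold higher in LP ILC2 among WT and at least 998-fold higher among Tgfbr2-/- libraries. *Nrarp*, also a target, was at 0.707, 34.0 and 4.07 CPM in LP ILC2 Tgfbr2-/- and had 0 counts in the 4 BM ILC2p libraries, so that its mean rested on 1 library.

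Of 12 receptors and effectors known to depend on GATA3, 11 were tested with genotype in BM ILC2p and *Il1rl1* was the only one called (lower), against 3.47% of all genes. The WT libraries held 941, 1088, 1045 and 1213 CPM of it, against 247, 220, 354 and 325 CPM with Tgfbr2-/-, and the groups did not overlap. *Crlf2*, a chain of the TSLP receptor, had a positive value (1.49, SE 1.45, adjusted p = 0.899) and was not called. In LP ILC2 0 of 12 were called with genotype. *Il1rl1* had a log2 fold change there of -1.44 (SE 0.32, edgeR adjusted p = 0.877), at 71.1 to 218 CPM in WT and 50.9 to 56.8 CPM in Tgfbr2-/-. *Il5* was at -1.23 (SE 0.27, adjusted p = 0.877), with 93.2 to 219 CPM against 41.3 to 65.3 CPM. *Crlf2*, *Il17rb*, *Il2ra*, *Il7r* and *Il4* had positive values. *Ccr8*, a chemokine receptor and the most abundant of the list by median RPKM except in BM ILC2p Tgfbr2-/- (*Il17rb*, 152 RPKM), was at 992 RPKM in LP ILC2 WT and 373 RPKM in BM ILC2p WT (medians) and was called in no comparison. Between WT cells of both sites *Areg* (3.07, SE 0.34), *Klrg1* (2.97, SE 0.28), *Il4* (2.12, SE 0.37) and *Il17rb* (1.24, SE 0.19) were called higher in LP ILC2 and *Il1rl1* lower (-2.71, SE 0.34; log2 fold changes throughout), against 2.56% of all genes called. *Klrg1* encodes a surface protein that only the LP ILC2 sort selected for. Among Tgfbr2-/- cells 3 were called higher (*Areg*, *Klrg1* and *Il17rb*) and *Il1rl1* lower, 4 of 12 against 13.7% of all genes called. *Gata3* itself overlapped between the sites in WT cells, at 2984 to 4689 CPM in LP ILC2 and 2324 to 4723 CPM in BM ILC2p.

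The genes whose pattern over libraries was nearest to a factor were found by the root mean square difference of centred log2(CPM + 1) profiles, for factors with an SD of at least 0.5 on that scale. Over the 8 BM ILC2p libraries the nearest to *Gata3* were *Mir3064* (0.20) and *Il2rg*, the common cytokine receptor γ chain (0.24). The nearest to *Id2* were the immediate early genes *Fos* (0.10) and *Jun* (0.16), and the nearest to *Ets1* were *Serpina1b* and *Fosb* (0.23 each). *Rora* was nearest to *Gm8979* (0.22) and *Prrc2c* (0.30). For *Bcl11b*, *Gfi1*, *Tcf7*, *Nfil3*, *Zbtb16* and *Tox*, whose own SD was 1.53 to 2.54, the nearest genes differed by 0.43 to 0.63. Over the 7 LP ILC2 libraries the nearest were *Timp2* (0.17) and *Rbak* (0.19) for *Gfi1*, *Prrt1* and *Gadd45b* (0.12 each) for *Nfil3*, *Anks1* (0.39) and *BC037704* (0.50) for *Zbtb16*, and *Ap3s1* (0.19) and *Idi1* (0.24) for *Tox*. *Gata3*, *Rora*, *Bcl11b*, *Ets1*, *Tcf7* and *Id2* varied too little there to be matched.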

How the data were processed

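Reads were mapped by the authors to mm9 (NCBIM37) with TopHat (up to 15 hits per read; the submitters' processing notes name Bowtie2 and mm9) and counted over RefSeq transcripts with rpkmforgenes. The deposited files give, per library and gene entry, raw read counts and RPKM made by the authors; strand was not stated. Here counts were tested with edgeR 4.0.16 in R 4.3.3 (TMM scaling, filterByExpr, quasi-likelihood test, Benjamini-Hochberg adjustment over all genes tested), with experiment as a covariate for genotype within a cell type, none between cell types, and cell type by experiment for the difference of genotype effects. The call rule (adjusted p under 0.1, fold over 1.5) follows the study. Alternatives used DESeq2 1.42.0 and limma 3.58.1. Each fit was run on simulated data with large set changes and a single fixed spread for all genes. That run does not show how the fits handle changes as small, or spreads as wide, as those of the factors here. RPKM served for the order of genes only, on log2(RPKM + 0.1).

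The 10 factors and all gene lists were chosen with earlier results of these data known. Named are the 10 factors, *Tgfbr2*, *Tgfbr1*, all members of the E protein list, the most abundant and up to 5 called members of each list per comparison, and the 2 nearest genes in pattern. *Il7r*, *Il2ra*, *Ly6a*, *Il17rb*, *Klrg1*, *Il13*, *Areg*, *Icos*, *Klrb1c*, *Crlf2* and *Lef1*, and in LP ILC2 *Il1rl1*, *Il5* and *Il4*, were added after their values were seen. Promoter windows matched 7 factors; those of *Ets1*, *Zbtb16* and *Tox* were not analysed here.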

Additional observations from a re-analysis of the deposited data

Results flagged for a closer look

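*Bcl11b* in Tgfbr2-/- replicate 2 of the first BM ILC2p experiment, at 365 CPM, lay far above the other 3 libraries of its group (5.84, 40.8 and 53.2 CPM). The gap to its nearest neighbour was 0.868 of the range of the group, above the 95% critical value that Dixon gives for groups of this size. It was the 1 such value among 30 combinations of factor and group of 4 looked at, and chance flags about 1 in 20. In the same library 13.8% of the genes expressed in other BM ILC2p libraries were under 1 CPM, and so were *Gfi1*, *Tcf7* and *Nfil3*. Without this library the log2 fold change of *Bcl11b* with genotype in BM ILC2p was -2.43, against -0.27 with it.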

How the results depend on the processing

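Values are log2 fold changes unless genes are counted, and where a value changed sign or a call was lost the cause was not tested. Of 364 values of the factors under alternatives other than leaving out a library, 309 kept direction and call, 10 lost a call, 11 gained one and 34 changed sign, 7 of these with scaling by *Il7r* and *Il2ra*. For genotype in LP ILC2, DESeq2 called 338 genes and no filter 3, against 0. *Rora* there turned to 0.0808 (library size scaling), 0.0098 (no filter), 0.0533 (at least 10 counts in every library), 0.0551 (limma on log2(RPKM + 1)), 0.0189 (no experiment covariate) and 0.0577 (second experiment alone, where the lone Tgfbr2-/- library is assumed to vary like WT). *Bcl11b* turned to 0.0906 (limma), 0.0740 (first experiment) and 0.0089 (replicate block), *Nfil3* to 0.0140 (no covariate) and 0.0495 (first experiment), *Tox* to -0.2524 (no covariate) and -0.6579 (second experiment), and *Gfi1* to -0.0566 (second experiment).

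For genotype in BM ILC2p, 321 genes became 1229 with DESeq2, 203 with at least 10 counts in every library, 38 and 77 in the first and second experiment alone, 175 with the replicate block and 659 when scaled by *Il7r* and *Il2ra*. *Gata3* was at -1.298 (adjusted p = 0.1001) with size factor (RLE) scaling, -1.846 and -0.9925 in either experiment alone, and -0.3581 when scaled by *Il7r* and *Il2ra*. *Id2* was at -0.8533 (adjusted p = 0.111), -1.213, -0.7456 and 0.0900 in the same order, and at -0.9565 (adjusted p = 0.117) with the replicate block, which left *Gata3* called. Same-numbered libraries did not deviate together (correlations of -0.046, -0.010 and -0.027), so the numbers are not taken to pair samples. The median over all genes was -0.10 by TMM, 0.03 by RLE, -0.31 by library size and 0.95 when scaled by *Il7r* and *Il2ra*. *Tcf7* turned to 0.1091 (DESeq2), 0.1081 (RLE), 0.9148 (first experiment) and 0.9127 (*Il7r* and *Il2ra*), *Nfil3* to 0.1004, 0.10, 0.1699 and 0.8420, and *Bcl11b* to 0.0522 (no covariate), 0.9928 (first experiment) and 0.7446 (*Il7r* and *Il2ra*). The last scaling also turned *Rora* to 0.0106, *Ets1* to 0.2036 and *Tox* to 0.2168. It shifts all genes nearly alike, as the medians show, so its sign changes do not show whether single factors changed. The values by TMM depend on a choice of scaling as well.

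Between WT cells of both sites 268 genes became 604 (DESeq2), 176 (no filter) and 436 (limma), and *Ets1* lost its call in 1 fit over all 15 libraries (0.9685, adjusted p = 0.127). Between Tgfbr2-/- cells 1575 genes became 389 with at least 10 counts in every library, *Gata3* lost its call by DESeq2 (1.0947, adjusted p = 0.199), *Bcl11b* turned to -0.0570 (DESeq2) and -0.0568 (RLE), and *Id2* to 0.2778 (library size), 0.2555 (at least 10 counts) and 0.2345 (limma). For the difference of genotype effects 127 genes became 1518 (DESeq2), 196 (library size, 132 higher and 64 lower against 60 and 67), 259 (no filter), 382 (limma) and 68 (adjusted p under 0.05). There *Gata3* gained a call with library size scaling, no filter, at least 10 counts in every library and limma (1.0539 to 1.4714), and *Id2* with library size scaling and limma. The other 5 gained calls were those of *Nfil3* by DESeq2 and limma and *Id2* by limma (-0.6447) between WT cells, and of *Nfil3* by limma (4.1580) and *Zbtb16* by DESeq2 (-2.3314) between Tgfbr2-/- cells.

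Leaving out 1 library at a time gave, for genotype in BM ILC2p, 179 to 319 genes, *Gata3* -1.7277 to -1.1402 (called in 2 of 8), *Id2* -1.0878 to -0.8080 (called in 4 of 8), *Bcl11b* -2.4308 to 0.2061, *Nfil3* -1.8734 to 1.1837 and *Tcf7* -2.3323 to 0.5857. For genotype in LP ILC2 it gave 0 genes throughout, *Rora* -0.1725 to 0.1467, *Ets1* -0.2269 to 0.0440, *Bcl11b* -0.4396 to 0.3609, *Nfil3* -0.3497 to 0.0325 and *Tox* -0.3851 to 0.4471. Between WT cells it gave 95 to 375 genes and *Ets1* 0.8411 to 1.0746, and between Tgfbr2-/- cells 1095 to 2384 genes, *Gata3* 1.0050 to 1.5795, *Ets1* 1.4211 to 1.8641, *Id2* -0.2811 to 0.0450 and *Bcl11b* -0.1646 to 2.0746. The difference of genotype effects had 14 to 407 genes. *Rora* kept both calls between the sites. A count of 0 allowed at most 0.310 CPM in any library.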
